A study of Mus musculus with 2 samples.

Results

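Nuclear-encoded subunits of the 5 complexes of oxidative phosphorylation were followed in single adipose tissue macrophages (ATMs) from mice kept on control diet (CD) and mice fed a high fat diet (HFD) overnight. Members were found by symbol alone, as every gene starting Ndufa, Ndufb, Ndufc, Ndufs, Ndufv, Uqcr, Cox4, Cox5, Cox6, Cox7, Cox8 or Atp5, plus *Sdha*, *Sdhb*, *Sdhc* and *Sdhd*. Of the 31053 genes in the tables, 93 matched, and 87 had at least 20 unique molecular identifiers (UMIs, each standing for 1 captured mRNA molecule) over both libraries. The 6 left out were *Cox8c*, *Cox7b2* and an additional identifier of *Atp5o*, all without a UMI, and *Cox8b*, *Cox4i2* and *Ndufa4l2*, with 4, 13 and 17 UMIs. The members just above the limit were *Cox6a2* with 36 UMIs, *Atp5s* with 102 and *Ndufaf6* with 115. By textbook assignment, 77 members were subunits, namely 36 of complex I, 4 of complex II, 8 of complex III, 14 of complex IV and 15 of complex V. The other 10 share a prefix but are assembly factors or related proteins, and were kept out of every sum over subunits. *Ndufa4*, despite its name, was placed in complex IV.

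Both libraries came from male C57/BL6 mice, for which no genotype beyond the strain is labelled. Each held CD45+Lin-Ly6Clow/-F4/80+ macrophages sorted from the epididymal fat of 3 adult mice and pooled before droplet capture with 3′ chemistry. One pool was kept on CD (labelled unchallenged) and the other received HFD for a single night. With 1 pool per diet there is no replicate, so no test was possible and no p-value is given. All intervals are 95% exact intervals that cover the error of counting UMIs only.

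Oxidative phosphorylation takes place in the inner mitochondrial membrane. Complex I (NADH dehydrogenase) and complex II (succinate dehydrogenase) pass electrons to ubiquinone, complex III (cytochrome bc1) passes them to cytochrome c and complex IV (cytochrome c oxidase) passes them to oxygen. Complexes I, III and IV pump protons, and complex V (ATP synthase) uses the proton gradient to make ATP. Most subunits are encoded in the nucleus and imported, while 13 are encoded by mitochondrial DNA and made inside the organelle. Complex II is the exception, since all its subunits are nuclear and it also serves the tricarboxylic acid (TCA) cycle. In macrophages, resident and alternatively activated states are commonly linked to respiration, and inflammatory activation to glycolysis.

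The promoters of many respiratory chain genes carry sites for nuclear respiratory factor 1 (NRF1), for GA-binding protein (GABP, also called NRF2, an ETS family factor) and for YY1. RefSeq promoters on GRCm38.p6, from 250 bases before to 50 bases after the start site, were found for 72 of the 87 members, 64 of them subunits. On either strand, the NRF1 core GCGCATGC was in 15.6% of the 64 subunit genes and 3.05% of all 27025 genes with a promoter. The GABP or ETS core CCGGAAG was in 25% against 9.93%, and the YY1 core AAGATGGC in 14.1% against 3.19%. At least 1 of the 3 stood in 29 subunit genes (45.3%), compared with 14.9% of all genes. The median GC content was 57.7% for subunit promoters and 52.7% for all promoters, and the part of base composition in the motif shares was not tested. YY1 letters were in 7 of 32 complex I genes (21.9%) and in none of the 5 complex III or 11 complex IV genes with a promoter. At least 1 of the motifs was in 2 of 3 genes of complex II (66.7%) and 3 of 5 of complex III (60.0%). For complexes V, I and IV it was 7 of 13 (53.8%), 14 of 32 (43.8%) and 3 of 11 (27.3%). These are matches of letters and not measured binding sites.

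The 150 bases before the start site are printed for 4 of the subunits with the clearest contrasts between macrophage sets, *Ndufa6*, *Atp5e*, *Uqcrfs1* and *Ndufa5*, and for *Atp5j* (coupling factor 6 of complex V), picked after its promoter was read because it held 2 different motifs. All 5 genes lie on the minus strand, and capitals mark a motif. *Ndufa6* (chr15:82354292-82354441) carried the NRF1 core on the opposite strand, its leftmost base 83 bases before the start. *Atp5e* (chr2:174464102-174464251) carried the GABP core on the opposite strand, 102 bases before the start, and *Atp5j* (chr16:84834977-84835126) the YY1 core at 88 and the GABP core at 61 bases before it. *Uqcrfs1* (chr13:30545317-30545466) and *Ndufa5* (chr6:24527691-24527840) held none of the 3 in this window. *Atp5j* and *Ndufa5* each have 2 annotated start sites, of which 1 is shown.
Ndufa6: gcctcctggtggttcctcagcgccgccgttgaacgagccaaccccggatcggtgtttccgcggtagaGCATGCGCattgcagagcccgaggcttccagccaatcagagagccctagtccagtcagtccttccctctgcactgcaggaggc
Atp5e: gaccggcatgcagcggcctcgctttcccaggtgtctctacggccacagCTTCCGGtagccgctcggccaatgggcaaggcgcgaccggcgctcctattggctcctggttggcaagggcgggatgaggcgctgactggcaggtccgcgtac
Atp5j: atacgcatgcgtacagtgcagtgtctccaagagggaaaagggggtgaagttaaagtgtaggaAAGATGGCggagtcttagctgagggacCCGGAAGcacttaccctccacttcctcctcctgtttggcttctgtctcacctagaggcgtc
Uqcrfs1: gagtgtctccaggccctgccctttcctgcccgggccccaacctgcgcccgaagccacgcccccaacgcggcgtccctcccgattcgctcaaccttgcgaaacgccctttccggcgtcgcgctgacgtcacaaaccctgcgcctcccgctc
Ndufa5: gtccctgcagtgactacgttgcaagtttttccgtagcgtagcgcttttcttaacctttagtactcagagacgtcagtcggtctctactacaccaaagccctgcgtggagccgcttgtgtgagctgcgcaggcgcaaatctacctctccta

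The libraries held 4459 (CD) and 3163 (HFD) barcodes, with 15003119 and 9164686 UMIs. Cells with 200 to 3500 genes and at most 10% of UMIs from mt- genes were kept. This left 2364 CD cells (median 4490.5 UMIs) and 2021 HFD cells (median 2792 UMIs), so the HFD cells held fewer UMIs. Depth below means UMIs per cell, and whether it reflects RNA content, capture or sequencing was not tested. Of the kept cells, 10 barcodes in each library also occurred in the other. All 7 macrophage markers were detected in both libraries. Markers of other cells were sparse, with summed UMIs in CD and HFD of 154 and 78 for endothelial cells, 874 and 34 for stromal cells, 155 and 67 for adipocytes, 91 and 9 for neutrophils, 18 and 1 for T or NK cells, 3 and 2 for B cells, 9 and 0 for mesothelial cells, and 6 and 5 for peritoneal macrophages. The haemoglobin genes *Hbb-bs*, *Hba-a1* and *Hba-a2* together reached 789.8 and 881 CPM (UMIs of a gene or list in 1000000 UMIs of the same cells), and cycling markers 44.0 and 14.8 CPM. Doublets were not called.

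Macrophage sets were set by *Lyve1*, a hyaluronan receptor of tissue-resident ATMs, and *Lyz1*, a lysozyme gene high in recently monocyte-derived ATMs. Lyve1+ cells had at least 1 *Lyve1* UMI and fewer than 10 *Lyz1* UMIs, and numbered 1049 in CD (44.4% of kept cells) and 361 in HFD (17.9%). Lyz1-high cells had at least 10 *Lyz1* UMIs and none of *Lyve1*, and numbered 432 (18.3%) and 618 (30.6%). Another 123 and 54 cells met both criteria and 760 and 988 met neither. Since the *Lyz1* criterion is a raw count, it favours cells with many UMIs. The sets differed in depth, with medians of 3800.0 against 7924 UMIs in CD and 2064 against 6438 in HFD. Resident markers summed to 5514 CPM in Lyve1+ and 680.1 CPM in Lyz1-high cells of the CD library, and monocyte-derived markers to 852 and 13849 CPM. The same order was seen in HFD, at 3802 against 348 CPM and 1568 against 16012 CPM. These sums include *Lyve1* and *Lyz1*, which the rule itself fixed. Of markers it did not use, the resident gene *Folr2* was at 2256 against 188 CPM in CD and 1130.3 against 53.9 CPM in HFD, and the monocyte-derived gene *Fn1* at 193 against 3117 CPM and 375 against 2777 CPM. *Plac8*, also listed as monocyte-derived, did not follow, at 5.83 against 6.79 CPM in CD and 45.7 against 9.67 CPM in HFD. The stress genes *Fos*, *Jun*, *Hspa1a* and *Hspa1b* together were higher in Lyve1+ cells, at 8530.4 against 3819 CPM in CD and 10079 against 4351 CPM in HFD, and their part in the results below was not tested.

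Most nuclear subunits were readily detected. In the CD library the highest levels were those of *Cox4i1* (1156 CPM), *Atp5l* (937), *Atp5e* (775), *Cox7c* (771), *Cox6c* (705), *Cox8a* (671), *Cox6b1* (669) and *Uqcrh* (565), all of complexes III to V. The lowest among subunits were those of *Cox6a2* (2.20 CPM), *Cox6b2* (6.11) and *Cox7a1* (15.2), all tissue-restricted copies of complex IV subunits. Of the assembly factors and related proteins, *Ndufaf6* (4.31 CPM) and *Atp5s* (4.72) were lowest. These are molecules counted at the 3′ end and were not divided by transcript length.

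Lyve1+ macrophages carried a smaller share of nuclear-encoded subunit transcripts than Lyz1-high macrophages in both libraries, while mitochondrially encoded subunits were close to 2 times higher in Lyve1+ cells. The 77 nuclear subunits summed to 20147 CPM (20013 to 20281) in CD Lyve1+ and 24157 CPM (23998 to 24316) in CD Lyz1-high cells. In the HFD library the sums were 16866 CPM (16601 to 17133) and 21846 CPM (21704 to 21989). As log2 ratios of Lyve1+ over Lyz1-high, these were -0.26 (-0.28 to -0.25) in CD and -0.37 (-0.40 to -0.35) in HFD. Cells with both markers (23351 and 21295 CPM) and with neither (20803 and 17883 CPM) lay between the sets in each library. The values are shares of a cell's UMIs, so fewer molecules per cell and more molecules of other genes cannot be told apart.

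**Figure D1:**
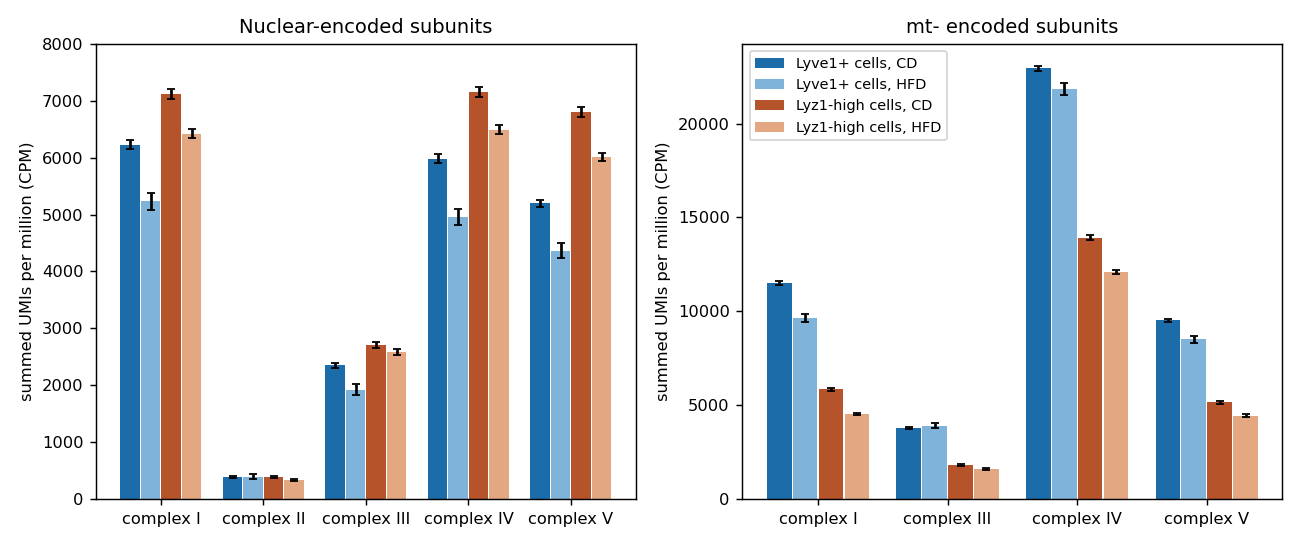
Bars give the summed level (CPM) of nuclear subunits by complex on the left and of the 13 mt- encoded subunits on the right, in Lyve1+ and Lyz1-high cells of the CD and HFD libraries, with exact Poisson 95% bars for counting error. Nuclear complexes I, III, IV and V are lower in Lyve1+ than Lyz1-high cells in both libraries, complex II is level in CD and higher in Lyve1+ cells in HFD (387 against 338 CPM), and the mt- sum is higher, at 47719.9 against 26706 CPM in CD.

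By complex, the gap between the sets was widest for ATP synthase in CD, while in HFD the intervals of complexes III, IV and V overlapped. Complex V subunits summed to 5196 CPM in Lyve1+ and 6801 CPM in Lyz1-high cells of CD, and to 4362 and 6015 CPM in HFD, which gave log2 ratios of -0.39 (-0.41 to -0.36) and -0.46 (-0.51 to -0.42). Complex IV followed at -0.26 (-0.28 to -0.23) and -0.39 (-0.43 to -0.34), complex III at -0.20 (-0.24 to -0.16) and -0.43 (-0.50 to -0.35), and complex I at -0.19 (-0.22 to -0.17) and -0.29 (-0.34 to -0.25). Complex II stood apart, at 386 against 385 CPM in CD (log2 0.00, -0.10 to 0.11) and 387 against 338 CPM in HFD (0.20, 0.02 to 0.37). That near-equality in CD depended on scaling. The complex II ratio in CD was 0.03 with mt- UMIs left out of the total and -0.06 without the 50 most abundant genes. It was -0.17 with median-of-ratios scaling, which sets the median gene to 0. The median gene was above 0 in HFD too, so that scaling also lowers the complex II ratio in HFD.

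Single subunits were counted as higher or lower when their log2 ratio was at least 0.32 in size and they had at least 100 UMIs in the compared sets. In CD, 5 of 75 subunits were higher in Lyve1+ cells and 21 lower (6.67% and 28.0%), whereas 39.9% of the 6367 genes that met the count minimum were higher and 20% lower. In HFD, 4 of 74 were higher and 34 lower (5.41% and 45.9%), against 37.6% and 24.1% of 4808 genes. The median subunit stood at -0.24 and -0.29, and the median gene at 0.17 and 0.12. Among genes with at least 500 UMIs, 21 of 70 subunits and 546 of 1956 genes were lower in CD, which are close shares. In HFD these were 33 of 62 and 461 of 1210. In cells of 2000 to 8000 UMIs, 14 of 74 subunits and 1150 of 4991 genes were lower in CD, and 21 of 73 and 758 of 2936 in HFD. Between the libraries, which share no cells, 55 of 74 subunits were below 0 in both and 7 above 0 in both, and their log2 ratios correlated across genes at r = 0.80 (subunits share libraries and depth, and are not independent). Such joint counts were not made over all genes, whose median was above 0 in each library.

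**Figure D2:**
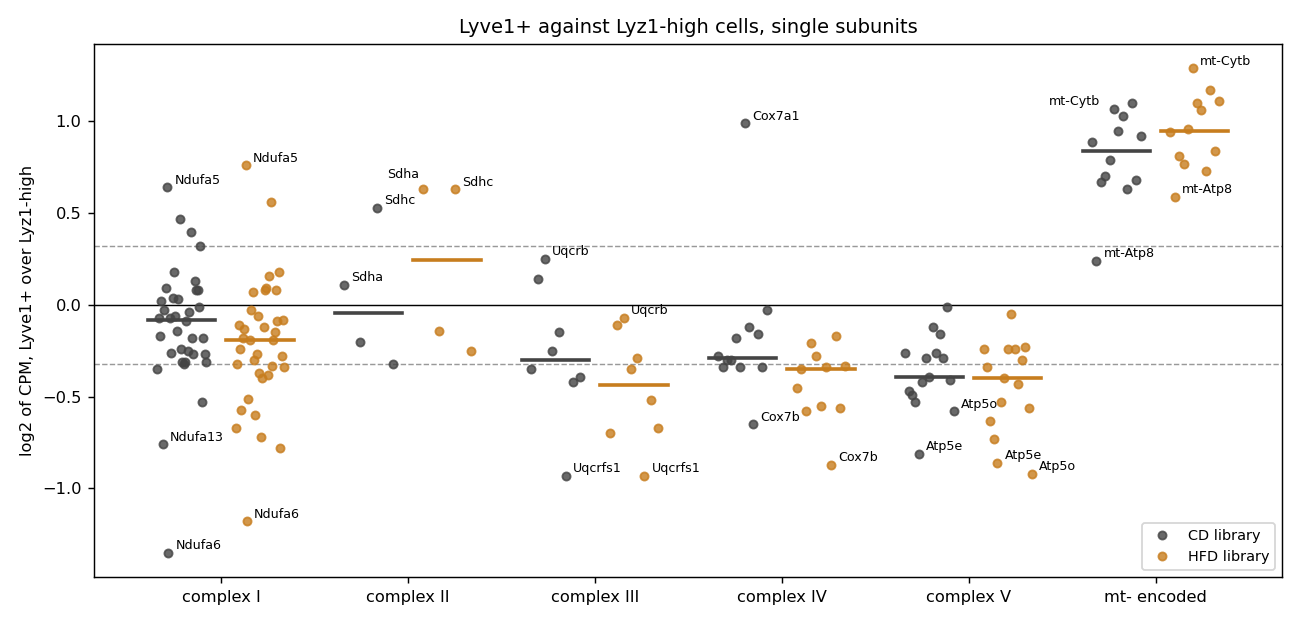
Each point is 1 subunit with at least 100 UMIs, placed by its log2 ratio of Lyve1+ over Lyz1-high cells and grouped by complex, with CD in grey and HFD in orange, dashed lines at the 0.32 mark and short lines at the group medians. All complex V subunits lie below 0 in both libraries, *Ndufa6* is the lowest point (-1.35 in CD), and the mt- encoded subunits lie above 0.

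Complex I held subunits at both ends of the scale. Its 7 core subunits, which carry the flavin and the iron-sulfur clusters, summed to a log2 ratio of -0.11 in CD and -0.16 in HFD, and the 29 supernumerary subunits around them to -0.20 and -0.31. In CD 3 of 36 were higher in Lyve1+ cells and 4 lower, against 39.9% and 20% of all genes. The share that was lower was thus below that of all genes. In HFD 2 were higher and 12 lower, against 37.6% and 24.1% of all genes. Among subunits with at least 100 UMIs, the widest contrast was that of *Ndufa6*, a supernumerary subunit of the LYR family that holds an acyl carrier protein (ENSMUSG00000022450, GRCm38 chr15:82350140-82354322, minus strand). It stood at 243 CPM in Lyve1+ and 619 CPM in Lyz1-high cells of CD (1044 and 2277 UMIs), and at 269 and 609 CPM in HFD. Its log2 ratios were -1.35 (-1.45 to -1.24) and -1.18 (-1.38 to -0.99), over 3 times the log2 ratio of the sum over all subunits. *Ndufa13*, known as GRIM-19, was also lower at 378 against 639.9 CPM in CD (-0.76, -0.85 to -0.67) and 341 against 507 CPM in HFD (-0.57, -0.75 to -0.40). *Ndufs8*, a core iron-sulfur subunit, had 87.4 against 126 CPM in CD (-0.53, -0.73 to -0.33) and 66.4 against 114 CPM in HFD (-0.78, -1.19 to -0.39). At 2000 to 8000 UMIs per cell, *Ndufa13* in CD was at -0.49 and *Ndufs8* in HFD at -0.44. *Ndufa5*, a supernumerary subunit of the matrix arm (ENSMUSG00000023089, chr6:24518666-24528013, minus strand), went the other way. Its levels were 179.5 against 115 CPM in CD (0.64, 0.47 to 0.82) and 171 against 101 CPM in HFD (0.76, 0.49 to 1.03). Thus *Ndufa6* and *Ndufa5*, subunits of the same complex, differed between the sets in opposite directions in each library.

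The 4 subunits of complex II did not share a direction. *Sdhc*, a membrane anchor subunit that binds ubiquinone (ENSMUSG00000058076, chr1:171127165-171150603), had 92.3 CPM in Lyve1+ and 63.9 CPM in Lyz1-high cells of CD (0.53, 0.30 to 0.77), and 77.2 against 50 CPM in HFD (0.63, 0.22 to 1.02). *Sdhd*, the partner anchor, had 66.2 against 82.9 CPM in CD (-0.32, -0.56 to -0.09) and -0.25 in HFD. The flavoprotein *Sdha*, where succinate is oxidised, was at 104 and 96.2 CPM in CD (0.11, -0.09 to 0.32, and -0.06 with median-of-ratios scaling) and at 131 and 84.1 CPM in HFD (0.63, 0.32 to 0.94). The iron-sulfur subunit *Sdhb* gave -0.20 and -0.14, but its direction depended on depth, at 0.21 in CD cells of 2000 to 8000 UMIs. *Sdhd* in HFD likewise ranged from -0.42 to 0.13 over the alternative settings.

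In complex III, *Uqcrfs1* stood out. It encodes the Rieske iron-sulfur protein that takes electrons from ubiquinol (ENSMUSG00000038462, chr13:30540308-30545362). Its level was 92.1 CPM in Lyve1+ and 176 CPM in Lyz1-high cells of CD (-0.93, -1.12 to -0.75), and 99.0 against 188 CPM in HFD (-0.93, -1.26 to -0.61). *Uqcrb*, a ubiquinone-binding subunit, was the highest of the complex, with 511 against 429 CPM in CD (0.25, 0.16 to 0.35) and 445 against 466 CPM in HFD (-0.07, -0.22 to 0.09). Its ratios moved with the processing, to 0.45 and 0.17 in cells of 2000 to 8000 UMIs, and to 0.08 in CD with median-of-ratios scaling. Of 8 subunits, 4 were lower in CD and 5 in HFD, against 20% and 24.1% of all genes, and none was higher.

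For complex IV, 11 of 12 tested subunits were below 0 in CD and 11 of 11 in HFD, and 4 and 8 passed the mark as lower. Of all genes, 20% and 24.1% did so. *Cox4i1*, the most abundant member and a regulatory subunit, was at 1058 against 1287 CPM in CD (-0.28) and 908 against 1238 CPM in HFD (-0.45). *Cox7b*, a small membrane subunit, was the lowest, at 173 against 272 CPM (-0.65, -0.79 to -0.51) and 137 against 251 CPM (-0.87, -1.15 to -0.61). The smallest contrast in HFD was that of *Cox7c*, with 766 against 863 CPM (-0.17, and 0.01 in cells of 2000 to 8000 UMIs). The single subunit above 0 in CD was *Cox7a1*, described below with its paralog.

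All 15 complex V subunits were below 0 in both libraries, with 8 past the mark in CD and 9 in HFD, against 20% and 24.1% of all genes. *Atp5e*, the epsilon subunit of the rotating central stalk (ENSMUSG00000016252, chr2:174461072-174464105), was at 576 CPM in Lyve1+ and 1010.0 CPM in Lyz1-high cells of CD (-0.81, -0.88 to -0.74), and at 471 and 857 CPM in HFD (-0.86, -1.01 to -0.72). *Atp5o*, the oligomycin sensitivity-conferring protein that joins the catalytic head to the peripheral stalk (ENSMUSG00000022956, chr16:91925214-91931687), had 136 against 204 CPM (-0.58, -0.74 to -0.42) and 80.5 against 153 CPM (-0.92, -1.29 to -0.57). At the other end, *Atp5k*, subunit e of the membrane part, gave 388 and 389 CPM in CD (-0.01), and *Atp5g3*, a copy of the c-ring gene, gave -0.05 in HFD, both near enough to 0 to change sign under other settings. Among the 10 related genes, *Cox7a2l* was lower in Lyve1+ cells at 255 against 339.7 CPM in CD (-0.41, -0.53 to -0.30) and -0.58 in HFD. In cells of 2000 to 8000 UMIs its CD ratio was -0.22. The highest were the assembly factor genes *Ndufaf3* in CD (0.25, and 0.02 to 0.47 over the alternative settings) and *Ndufaf2* in HFD (0.35, and 0.19 to 0.49). These ranges do not cover counting error, and UMIs were few. *Ndufaf3* had 239 in all kept CD cells and *Ndufaf2* 194 in all kept HFD cells.

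The 13 mt- encoded subunits ran opposite to the nuclear ones. They summed to 47719.9 CPM in Lyve1+ and 26706 CPM in Lyz1-high cells of CD, 1.79-fold (log2 0.84, 0.83 to 0.85), and to 43885 and 22615 CPM in HFD, 1.94-fold (0.96, 0.94 to 0.97). All 12 with enough UMIs, which leaves out *mt-Nd6*, were above 0 in both libraries, and 11 in CD and 12 in HFD passed 0.32. Of all genes, 39.9% and 37.6% were higher by that mark. *mt-Nd1* of complex I was at 5932 against 3073 CPM in CD and 4453 against 2071 CPM in HFD, and *mt-Cytb*, the catalytic subunit of complex III, at 3783 against 1797 CPM and 3899 against 1595 CPM. *mt-Co1*, the catalytic core of complex IV, was at 9306 against 5851 CPM and 9862 against 5622 CPM, and *mt-Atp6* at 9416 against 5076 CPM and 8425 against 4376 CPM. The smallest contrast was that of *mt-Atp8*, at 89.8 against 75.8 CPM in CD (0.24, 0.02 to 0.47) and 0.59 in HFD, and in CD cells of 2000 to 8000 UMIs it was -0.15. Per nuclear subunit UMI there were 2.37 mt- UMIs in Lyve1+ and 1.11 in Lyz1-high cells of CD, and 2.60 and 1.04 in HFD. These 13 genes supply all the mt- UMIs on which the 10% limit acts, so their level has a ceiling set by the filter. The summed ratios were 0.54 in CD and 0.57 in HFD with a limit of 5%, and 1.01 and 1.18 with a limit of 20%. The share of mt- UMIs is also a usual sign of cell damage, and its part in this contrast was not tested.

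**Figure D3:**
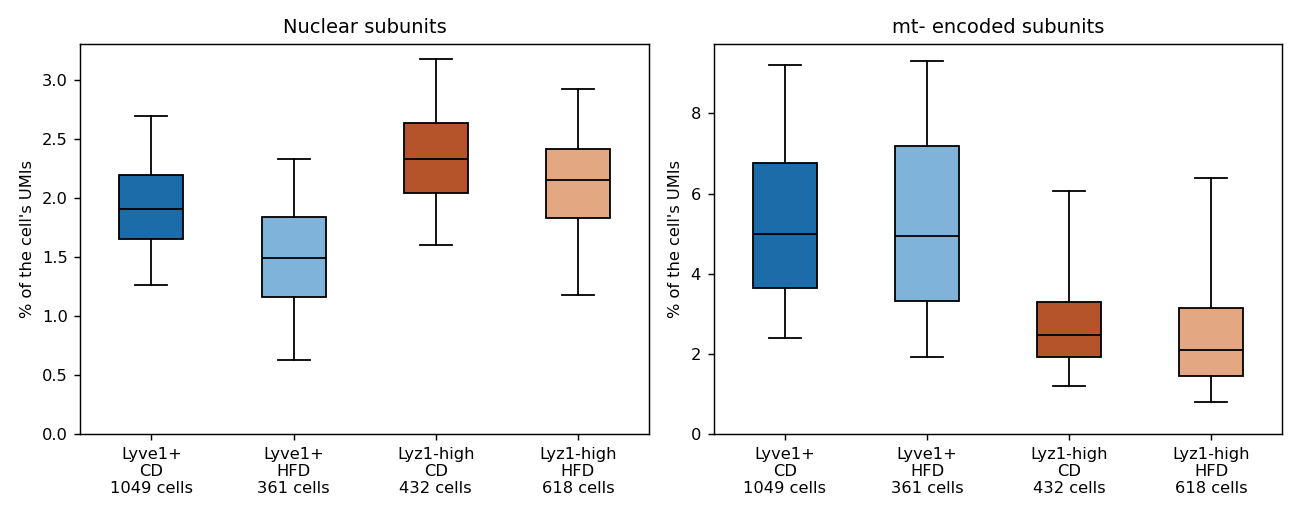
Boxes give the 25th, 50th and 75th percentiles, and whiskers the 5th and 95th, of the percent of each cell's UMIs from nuclear subunits and from mt- encoded subunits, by library and set. Median nuclear shares are 1.91% and 2.33% in CD and 1.49% and 2.15% in HFD for Lyve1+ and Lyz1-high cells, and the ranges of the sets overlap widely.

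Cell by cell, the sets overlapped. The median cell held 1.91% of its UMIs in nuclear subunits among CD Lyve1+ cells (5th to 95th percentile 1.26 to 2.70) and 2.33% among CD Lyz1-high cells (1.60 to 3.18). In HFD the medians were 1.49% (0.627 to 2.33) and 2.15% (1.18 to 2.93). The mt- shares were 5.0% (2.39 to 9.22) against 2.48% (1.19 to 6.07) in CD and 4.95% (1.92 to 9.31) against 2.10% (0.807 to 6.40) in HFD.

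Both shares moved with UMIs per cell within each set. Among CD Lyve1+ cells, nuclear subunits were at 15602 CPM in the 110 cells under 2000 UMIs and at 18899, 20832 and 22196 CPM in the 458, 437 and 44 cells of the 3 deeper bins (2000 to 4000, 4000 to 8000, and 8000 or more UMIs). The mt- subunits went from 73482 CPM in the shallowest bin through 59065 and 42156 to 31647 CPM in the deepest. Nuclear subunits were thus a larger share in deeper cells, and mt- subunits a smaller one. At 2000 to 4000 UMIs, Lyve1+ and Lyz1-high cells of CD did not differ beyond counting error in nuclear subunits, at 18899 CPM (18669 to 19131) and 18601 CPM (17792 to 19436, 33 cells). In HFD the same bin did differ, at 16745 CPM (16344 to 17154) and 18388 CPM (17910.2 to 18876, 100 cells). At 4000 to 8000 UMIs they were at 20832 and 23246 CPM in CD, and at 20374 CPM (19787 to 20974, 41 cells) and 21738 CPM (21511 to 21966) in HFD. The mt- sum was higher in Lyve1+ cells in each bin that both sets filled with at least 20 cells, for instance 42156 against 30131 CPM in CD at 4000 to 8000 UMIs.

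**Figure D4:**
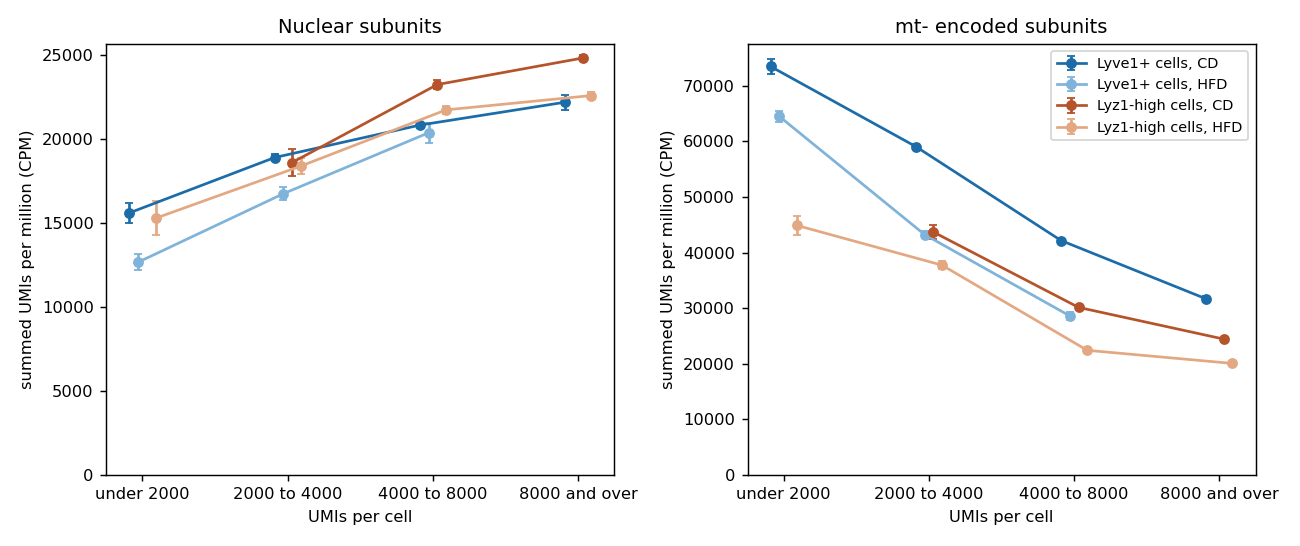
Points give summed CPM of nuclear subunits and of mt- encoded subunits by bin of UMIs per cell, for Lyve1+ and Lyz1-high cells of each library, with bins of fewer than 20 cells left out. Nuclear levels climb with depth in every set, mt- levels fall with it, and the gap in nuclear levels between Lyve1+ and Lyz1-high cells within a bin is narrower than over all cells.

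Restricted to cells of 2000 to 8000 UMIs, the nuclear ratio of Lyve1+ over Lyz1-high cells was -0.18 in CD and -0.23 in HFD, and depth still differed within that range (medians 3948 and 5907 UMIs in CD). Complex V remained the lowest, at -0.31 and -0.33, and complex I was at -0.10 and -0.14. The mt- ratio was 0.63 and 0.61. The widest single contrasts had the same direction there. In CD and HFD they were -1.33 and -1.15 for *Ndufa6*, -0.81 and -0.85 for *Uqcrfs1*, -0.83 and -0.69 for *Atp5e*, and 0.80 and 0.87 for *Ndufa5*.

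After the overnight HFD, nuclear subunits were a smaller share of all UMIs, mostly by less than the 0.32 mark per gene. Over all kept cells they summed to 21803 CPM in CD and 19988 CPM in HFD (log2 -0.13, -0.13 to -0.12). Within Lyve1+ cells the ratio of HFD over CD was -0.26 (-0.28 to -0.23) and within Lyz1-high cells -0.15 (-0.16 to -0.13). Depth differed in the same order as the levels, and in cells of 2000 to 8000 UMIs the 3 ratios were -0.05, -0.16 and -0.11. Over all cells within bins, CD and HFD stood at 15398 and 12571 CPM under 2000 UMIs and at 18742 and 17199 CPM at 2000 to 4000 UMIs. They stood at 21428 and 21125 CPM at 4000 to 8000 UMIs, and at 24362 and 22576 CPM at 8000 or more UMIs. The sets also differed in markers between the libraries. In Lyve1+ cells, resident markers summed to 5514 CPM in CD and 3802 CPM in HFD, and monocyte-derived markers to 852 and 1568 CPM. In Lyz1-high cells these sums were 680.1 and 348 CPM, and 13849 and 16012 CPM. The sums include *Lyve1* and *Lyz1*, which define the sets, and the genes did not all move together. In Lyz1-high cells *Lyz1* (8094 CPM in CD and 9965 CPM in HFD), *Ear2* (1842 and 2548) and *Plac8* (6.79 and 9.67) were higher in HFD. *Fn1* (3117 and 2777) and *Ccr2* (789 and 711) were lower. In Lyve1+ cells *Folr2* (2256 and 1130.3), *F13a1* (1881 and 1168) and *Timd4* (95.3 and 34.8) were lower. *Lyve1* was near level (798 and 784) and *Cd163* higher (483 and 684). The part of these differences, and of the mix of sets, in the ratios was not tested. With 1 pool per diet, diet and library cannot be told apart.

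No complex was higher in HFD over all cells, where the ratios were -0.14 for complex I, -0.16 for II, -0.10 for III, -0.12 for IV and -0.12 for V. In Lyve1+ cells they were -0.25, 0.00 (-0.16 to 0.17), -0.29, -0.27 and -0.25, so complex II was level there. In Lyz1-high cells they were -0.15, -0.19, -0.06, -0.14 and -0.18. The HFD over CD ratio of Lyve1+ cells minus that of Lyz1-high cells was -0.11 (-0.14 to -0.08) for all nuclear subunits, -0.23 (-0.31 to -0.14) for complex III and 0.19 (0.00 to 0.39) for complex II, with intervals for counting error alone. The gap for all nuclear subunits narrowed under other settings. With at least 1000 genes per cell the ratios were -0.15 in Lyve1+ and -0.14 in Lyz1-high cells, and at 2000 to 8000 UMIs they were -0.16 and -0.11.

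Of 76 subunits over all kept cells, 0 were higher in HFD and 11 lower (14.5%), against 13.1% and 17.3% of 8708 genes, so the share that was lower was near that of all genes. Within Lyve1+ cells 2 of 74 were higher and 29 lower (2.70% and 39.2%), against 21.5% and 18.3% of 5297 genes. In Lyz1-high cells 0 of 74 were higher and 14 lower (18.9%), against 14.0% and 13.3% of 5898 genes. Median subunits stood at -0.15, -0.27 and -0.15, and median genes at -0.01, 0.04 and 0.00. In Lyve1+ cells of 2000 to 8000 UMIs, 16 of 74 subunits and 914 of 4651 genes were lower, which are close shares. Of the 74 subunits measured in both sets, which share no cells, 58 were below 0 in both and 4 above 0 in both (r = 0.41 across genes). Both sets come from the same pair of libraries, so their ratios are not independent. Joint counts of this kind were not made over all genes.

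**Figure D5:**
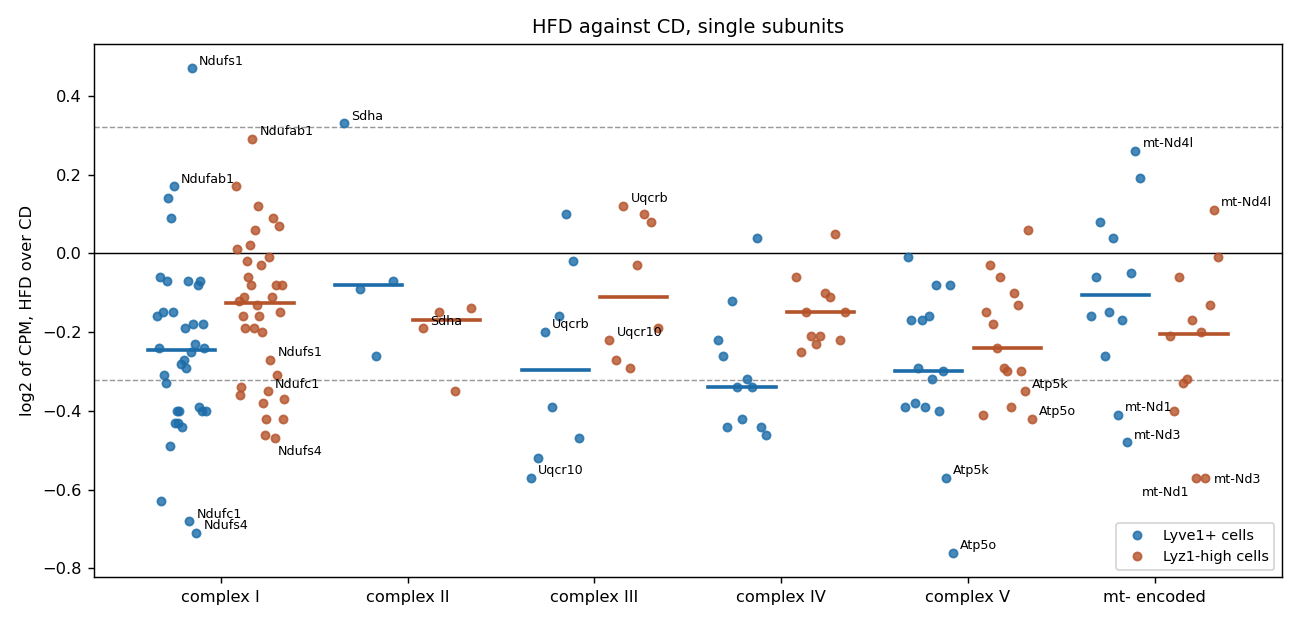
Each point is 1 subunit with at least 100 UMIs, placed by its log2 ratio of HFD over CD and grouped by complex, with Lyve1+ cells in blue and Lyz1-high cells in brown, dashed lines at the 0.32 mark and short lines at group medians. Most points lie between 0 and -0.5, with *Atp5o* and *Ndufs4* lowest in Lyve1+ cells at -0.76 and -0.71.

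The complex I subunits lowest in HFD differed in part between the sets. *Ndufs4*, a supernumerary subunit whose loss causes Leigh-like disease, was at 51.1 CPM in HFD and 83.5 CPM in CD Lyve1+ cells (-0.71, -1.18 to -0.27), and at 56.8 and 78.8 CPM in Lyz1-high cells (-0.47, -0.73 to -0.22). In Lyve1+ cells *Ndufc1* was at 123 against 197 CPM (-0.68, -0.97 to -0.39), and *Ndufa12* at 80.5 against 124 CPM (-0.63, -1.0 to -0.27), both supernumerary subunits. In Lyz1-high cells *Ndufb8*, of the membrane arm, was at 198 against 273 CPM (-0.46, -0.60 to -0.33), the core subunit *Ndufv2* at 102 against 137 CPM (-0.42) and *Ndufb9* at 149.9 against 201 CPM (-0.42). *Ndufb8* was also the lowest of complex I over all cells, at 191 against 265 CPM (-0.47, -0.56 to -0.38). In cells of 2000 to 8000 UMIs, *Ndufs4* was at -0.57 in Lyve1+ cells but at -0.22 in Lyz1-high cells, and *Ndufb9* at -0.30, so these ratios in Lyz1-high cells no longer reached the mark. *Ndufc1* and *Ndufa12* were at -0.45 and -0.38, and *Ndufb8* at -0.51 in Lyz1-high cells. Few genes ran the other way. The core subunit *Ndufs1* had 34.8 against 25.2 CPM in Lyve1+ cells, but with 32 and 108 UMIs its ratio of 0.47 spanned 0 (-0.15 to 1.05), and its exons overlap those of *Eef1b2* on the opposite strand. *Ndufab1*, the acyl carrier protein, was at 115 against 94.6 CPM in Lyz1-high cells (0.29, 0.08 to 0.49, and 0.19 in cells of 2000 to 8000 UMIs). *Ndufa6* was higher in HFD over all cells, at 486 against 422 CPM in HFD and CD respectively (0.20, 0.14 to 0.26, and 0.45 in cells of 2000 to 8000 UMIs), but not beyond counting error within Lyve1+ (0.14, -0.06 to 0.34) or Lyz1-high cells (-0.02, -0.10 to 0.06), and the mix of those sets differed between the libraries.

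*Sdha* was at 131 CPM in HFD and 104 CPM in CD Lyve1+ cells (0.33, 0.03 to 0.62) and gave -0.19 (-0.41 to 0.02) in Lyz1-high cells. The value in Lyve1+ cells just reached the mark and ranged from 0.05 to 0.44 over the alternative settings. *Sdhc* was at 56.8 against 76.0 CPM over all cells (-0.42, -0.59 to -0.26), -0.26 (-0.64 to 0.11) in Lyve1+ and -0.35 (-0.63 to -0.08) in Lyz1-high cells. The remaining *Sdhb* and *Sdhd* lay at -0.14 each over all cells, and *Sdhb* was at 0.07 in cells of 2000 to 8000 UMIs. In complex III, *Uqcr10* had 218 against 322 CPM in Lyve1+ cells (-0.57, -0.79 to -0.35), *Uqcr11* had 311 against 402 CPM over all cells (-0.37, -0.44 to -0.30) and the core protein gene *Uqcrc1* had 119 against 146 CPM in Lyz1-high cells (-0.29). These were -0.38, -0.34 and -0.03 in cells of 2000 to 8000 UMIs, so the *Uqcrc1* contrast was not seen there. *Uqcrfs1* was higher over all cells, at 161 against 133 CPM (0.27, 0.16 to 0.38, and 0.44 in cells of 2000 to 8000 UMIs), with 0.10 in each set. *Uqcrb* was lower in HFD Lyve1+ cells (445 against 511 CPM, -0.20, -0.35 to -0.05) and higher in HFD Lyz1-high cells (466 against 429 CPM, 0.12, 0.02 to 0.22). In cells of 2000 to 8000 UMIs its ratio in Lyz1-high cells was 0.24, and that in Lyve1+ cells was not computed.

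In complex IV, *Ndufa4* was at 318 CPM in HFD and 436 CPM in CD Lyve1+ cells (-0.46, -0.64 to -0.28), and *Cox5a* at 496 against 591 CPM in Lyz1-high cells (-0.25), where no subunit of complex IV passed the mark. *Ndufa4* was at -0.21, short of the mark, in cells of 2000 to 8000 UMIs. *Cox7c* was nearly level in all cells, Lyve1+ cells and Lyz1-high cells, at 0.07, 0.04 and 0.05. In complex V, *Atp5o* was at 80.5 against 136 CPM in Lyve1+ (-0.76, -1.13 to -0.41) and 153 against 204 CPM in Lyz1-high cells (-0.42, -0.57 to -0.26). In cells of 2000 to 8000 UMIs these were -0.51 and -0.10. *Atp5k* had 289 against 378 CPM over all cells (-0.39) and 261 against 388 CPM in Lyve1+ cells (-0.57, -0.77 to -0.38), which became -0.31 and -0.44 in that depth range. The catalytic subunit *Atp5b* was level in Lyve1+ cells (-0.01), and *Atp5l*, subunit g of the membrane part, was slightly higher over all cells (1009.7 against 937 CPM, 0.11, but -0.04 as a mean of per-cell shares). Among the assembly factors, *Ndufaf2* was higher over all cells at 24.0 against 17.9 CPM (0.42, 0.14 to 0.71). *Ndufaf4* was higher in Lyz1-high cells at 25.4 against 17.7 CPM (0.52, 0.06 to 0.99), and the ratio of *Ndufaf6* over all cells spanned 0 (0.46, -0.13 to 1.05). *Ndufaf5* gave -0.35 over all cells from only 35 UMIs in HFD and 68 in CD. Its range of -0.69 to -0.29 over the alternative settings does not cover counting error.

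The mt- encoded subunits were also lower in HFD, at 29808 against 37422 CPM over all cells (-0.33, -0.34 to -0.32), and gave -0.12 (-0.14 to -0.11) in Lyve1+ and -0.24 (-0.25 to -0.23) in Lyz1-high cells. In cells of 2000 to 8000 UMIs these 3 values were -0.55, -0.35 and -0.34. As means of per-cell shares they were -0.09, -0.01 and -0.16, so the size of the difference depended on how cells were weighted. Cells with neither marker were nearly level, at 37340.3 CPM in HFD and 37899 CPM in CD, and cells with both were at 24232 and 31608 CPM. Lyve1+ cells, where the mt- share was highest, made up 17.9% of kept cells in HFD and 44.4% in CD. The part of this mix in the ratios over all cells was not tested. Over all cells 6 of 13 passed the mark as lower, where 17.3% of all genes did, and none as higher. In Lyve1+ cells 2 of 12 were lower, near the 18.3% of all genes, and in Lyz1-high cells 4 of 12, against 13.3%. Lowest were *mt-Nd1*, at -0.66, -0.41 and -0.57 for all, Lyve1+ and Lyz1-high cells, and *mt-Nd3*, at -0.62, -0.48 and -0.57, both of complex I, followed by *mt-Co2* of complex IV at -0.41, -0.26 and -0.33. Within the same complex I, *mt-Nd4l* was at -0.02, 0.26 (-0.02 to 0.54) and 0.11. *mt-Co1* was at 0.08 (0.05 to 0.12) in Lyve1+ and -0.06 (-0.08 to -0.03) in Lyz1-high cells, and at -0.21 and -0.15 in cells of 2000 to 8000 UMIs.

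For subunits with tissue-restricted copies, the widely expressed copy dominated. *Cox4i1* held 99.9% of the *Cox4i1* and *Cox4i2* UMIs in CD and 100% in HFD, where 0 of 9103 were *Cox4i2* (upper limit 0.0405%). *Cox6a1* held 99.6% and 99.9% of its set, *Cox6b1* 99.1% and 99.3%, *Ndufa4* 99.8% against *Ndufa4l2* in CD, and *Cox8a* 100% in CD. *Cox6b2*, the testis copy, was at 4.08 CPM in HFD and 6.11 CPM in CD, from 33 and 75 UMIs (-0.58, -1.22 to 0.03). The 3 copies that encode the same mature c-ring subunit, *Atp5g1*, *Atp5g2* and *Atp5g3*, held 29.8%, 44.3% and 25.9% in CD and 30.0%, 46.0% and 24.0% in HFD.

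*Cox7a1* (ENSMUSG00000074218, chr7:30184144-30186078, plus strand) is the copy of *Cox7a2* used in heart, skeletal muscle and brown fat. In all kept cells *Cox7a2* still dominated, with 96.1% of the UMIs of the pair in CD and 98.4% in HFD. Among the tissue-restricted copies, however, *Cox7a1* held the largest share of its set. Over all kept cells it had 187 UMIs in CD and 43 in HFD, or 15.2 and 5.32 CPM (HFD over CD -1.52, -2.03 to -1.03), the largest ratio over all kept cells among members with at least 100 UMIs. It made up 3.94% (3.40 to 4.53) of *Cox7a1* and *Cox7a2* UMIs in CD and 1.56% (1.13 to 2.09) in HFD. In the CD library it was higher in Lyve1+ cells, at 21.0 against 10.6 CPM from 90 and 39 UMIs (0.99, 0.43 to 1.57), and its share was 5.49% (4.44 to 6.71) against 2.63% (1.88 to 3.58). The HFD sets held 4 and 18 UMIs, too few to compare. Of the muscle and brown fat markers *Ucp1*, *Myh7* and *Ckm*, 15 UMIs were seen in CD (2, 0 and 13) and 12 in HFD, all of *Ckm*. Stromal markers were also scarcer in HFD (34 against 874 UMIs). Over the alternative settings the *Cox7a1* ratio of HFD over CD in all kept cells ranged from -1.72 to -1.37. Among those settings, 1 left out cells with a UMI of another cell type, stromal cells included. The part of stromal RNA in the contrast was not tested on its own.

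Genes that serve the same pathway were counted in the same way, in the order Lyve1+ over Lyz1-high in CD, the same in HFD, then HFD over CD in all, Lyve1+ and Lyz1-high cells. In that order, 39.9%, 37.6%, 13.1%, 21.5% and 14.0% of all genes with enough UMIs were higher, and 20%, 24.1%, 17.3%, 18.3% and 13.3% lower. Lists of a few genes are too short to set apart from these shares. Of electron carrier and exchange genes, 1 of 9 was higher and 4 lower, then 1 and 2 of 8, 0 and 1 of 9, 0 and 2 of 8, and 0 and 1 of 9. Cytochrome c (*Cycs*) was at 115 CPM in Lyve1+ and 199 CPM in Lyz1-high cells of CD (-0.79, -0.96 to -0.62), and the ADP/ATP carrier *Slc25a5* at 351 and 548 CPM (-0.64), whereas its paralog *Slc25a4* was at 106 and 74.2 CPM (0.51). Of TCA cycle genes, 2 of 13 were higher and 3 lower, then 1 and 3 of 11, 0 and 4 of 13, 1 and 2 of 12, and 0 and 2 of 12. Malate dehydrogenase *Mdh2* was at 104 against 218 CPM in CD (-1.07, -1.24 to -0.90) and citrate synthase *Cs* at 31.2 against 64.1 CPM (-1.04), while fumarase *Fh1* was at 59.2 against 35.9 CPM (0.72).

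Of regulators of mitochondrial gene expression, 2 of 5 were higher in Lyve1+ cells of CD and 3 of 4 in HFD, and 1 of 9, 3 of 5 and 0 of 5 were higher in HFD, with none lower in any comparison, and 2 of 5 is the share seen over all genes. *Tfam*, which packages and transcribes mitochondrial DNA, was at 22.8 against 14.1 CPM in CD (0.69, 0.19 to 1.21), and *Gabpa*, the DNA-binding subunit of GABP, at 0.51 in CD and 0.95 in HFD. *Nrf1* was at 0.71 in HFD. *Ppargc1a*, a coactivator of mitochondrial biogenesis, had 0 UMIs in both libraries. Of other assembly factors, 4 of 15 were higher and 2 lower, then 3 and 3 of 11, 3 and 5 of 29, 4 and 3 of 14, and 4 and 1 of 15. *Uqcc2*, for complex III, was at 117 against 226 CPM in CD (-0.95), the copper chaperone *Cox17* at 162 against 266 CPM (-0.72), and *Cox16* was higher in HFD over all cells at 67.5 against 37.5 CPM (0.85, 0.67 to 1.03). Of mitochondrial ribosome genes, which serve translation of the mt- encoded subunits, 5 of 69 were higher and 17 lower, then 7 and 25 of 62, 1 and 5 of 76, 9 and 15 of 62, and 3 and 6 of 70. The share of ribosome genes that were higher was below that of all genes in each comparison. Examples in CD were *Mrpl33* at 248 against 449 CPM (-0.86) and *Mrps6* at 43.6 against 89.7 CPM (-1.04), while *Mrpl28* gave 0.61.

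Members lie on 19 chromosomes, and all 93 matched symbols were found in the mouse annotation. Several share exons with a neighbour on the opposite strand that had many UMIs of its own, including *Ndufs1* with *Eef1b2* (7563 UMIs), *Ndufb6* with *Smim27* (1524), *Ndufs6* with *Mrpl36* (1470), *Ndufaf3* with *Impdh2* (1371), *Cox4i1* with *Emc8* (934) and *Atp5j* with *Gabpa* (473). *Ndufa6*, *Uqcrfs1*, *Ndufa5* and *Atp5e* had no such neighbour, and *Uqcrb* overlapped only *Gm10767*, with 5 UMIs. On the same strand, *Ndufb8* overlapped *Gm20538*, *Ndufb9* overlapped *Gm49356* and *Ndufb2* overlapped *Gm42420*, each neighbour with 0 UMIs. *Atp5o* overlapped its additional identifier, also with 0 UMIs. Whether these overlaps cost the members UMIs was not tested.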

How the data were processed

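Per the labels, 2 libraries of sorted epididymal ATMs were made with 10X 3′ V2 chemistry, 1 per diet, each from 3 pooled mice. The authors deposited raw UMI counts. The submitters' processing notes name Cell Ranger 3.0.2 and the build mm10. UMIs were summed over cells per library and set and divided by all UMIs of those cells to give CPM, with exact Poisson intervals, and log2 ratios were given exact conditional binomial intervals. With 1 pool per diet no test was run, because cells are not replicates. A call needed a 1.25-fold difference (0.32 as log2) and 100 UMIs in the compared sets. Cells with 200 to 3500 genes and at most 10% mt- UMIs were kept, no doublet caller was run, and depth ranged from a median of 2064 UMIs (HFD Lyve1+) to 7924 UMIs (CD Lyz1-high).

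The members, gene lists, motifs and sets were chosen with earlier results of these data known. Genes named are the highest and lowest ratio per complex and the 6 largest ratios in each comparison, the paralog sets, the complex II subunits, the mt- encoded subunits and up to 4 genes past the fold per other list. The most and least abundant members, those with overlapping neighbours and *Atp5j* were named after their values were seen. The other lists were cell type markers, electron carriers, the TCA cycle, regulators, assembly factors and the mitochondrial ribosome. Gene positions and overlaps came from the GENCODE vM21 annotation of GRCm38, and promoters from RefSeq on GRCm38.p6. Alternatives varied the scaling, cell filters, depth range, set rule and fold. Leaving out barcodes shared by both libraries and the split by depth were added after seeing the data. Scripts were tested on simulated counts that held counting error alone, so variation between cells or pools was not covered. The pass mark of that test was restated after its first run. The scripts used Python 3.11.15, numpy 2.4.6, scipy 1.17.1, pandas 2.3.3 and matplotlib 3.10.9.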

Additional observations from a re-analysis of the deposited data

Results flagged for a closer look

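HFD over CD ratios of 2 genes had opposite signs in the macrophage sets, with intervals that did not include 0. For *Uqcrb* the log2 ratio was -0.20 in Lyve1+ and 0.12 in Lyz1-high cells. For *mt-Co1* it was 0.08 in Lyve1+ and -0.06 in Lyz1-high cells. The intervals cover counting error only, and with 1 pool per diet the differences were not tested. In cells of 2000 to 8000 UMIs *mt-Co1* had the same sign in both sets, at -0.21 and -0.15. In that range *Uqcrb* was at 0.24 in Lyz1-high cells, while its HFD over CD ratio in Lyve1+ cells was not computed. Its Lyve1+ over Lyz1-high ratio there was 0.45 in CD and 0.17 in HFD. Whether *Uqcrb* kept opposite signs in that range was thus not tested.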

How the results depend on the processing

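With 1 pool per diet, no value has a replicate error, and depth differed between sets and libraries. No summed nuclear ratio changed sign under any alternative run. No paired analysis was possible because each diet has 1 library and no replicate numbers. In the order Lyve1+ over Lyz1-high in CD, the same in HFD, then HFD over CD in all, Lyve1+ and Lyz1-high cells, the summed nuclear log2 ratio (-0.26, -0.37, -0.13, -0.26 and -0.15) moved as follows, beyond its counting interval unless stated, and the cause was not tested. In cells of 2000 to 8000 UMIs it was -0.18, -0.23, -0.05, -0.16 and -0.11, and as a mean of per-cell shares -0.28, -0.48, -0.26, -0.36 and -0.16. Median-of-ratios scaling gave -0.43, -0.49, -0.11 and -0.29 for the first 4, and brought the median gene of the set comparisons from 0.17 and 0.12 to 0.00. Cells with at least 1000 genes gave -0.25, -0.25, -0.07, -0.15 and -0.14, the last within its counting interval. At most 5% mt- UMIs gave -0.24, -0.27, -0.10 and -0.18 for the first 4. Leaving mt- UMIs out of the total gave -0.23, -0.34 and -0.14 for the first 3. Leaving out the 50 most abundant genes gave -0.33, -0.45, -0.09 and, in Lyz1-high cells, -0.13. At most 2500 genes gave -0.22, -0.35, -0.11 and, in Lyz1-high cells, -0.12. At most 20% mt- UMIs gave -0.30 and -0.43 for the set comparisons. Requiring 2 *Lyve1* and 20 *Lyz1* UMIs gave -0.24, -0.33 and, for HFD over CD in Lyve1+ cells, -0.23. Without barcodes found in both libraries the 5 ratios were -0.26, -0.37, -0.12, -0.25 and -0.14, all within their counting intervals.

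Of 170 single-gene ratios, 37 changed sign under at least 1 alternative, most of them small. Of these, 1 was past the mark with at least 100 UMIs, *Atp5g1* in the HFD set comparison, which went from -0.40 to 0.07 in cells of 2000 to 8000 UMIs. With fewer UMIs, *Cox6b2* (0.52, down to -0.15) and *mt-Nd6* (0.38, down to -0.46) for HFD over CD in Lyve1+ cells also passed 0.32 and changed sign. Counts of lower subunits moved by over 1.5 times. In CD, 21 of 75 became 34 without the top 50 genes and 46 with median-of-ratios scaling (where 3 were higher, not 5). Genes of all kinds that were lower numbered 1492 and 1865 of 6367 there. At 2000 to 8000 UMIs 14 of 74 subunits were lower, against 1150 of 4991 genes. At 1.5-fold 5 of 75 were, against 732 of 6367 genes. In both of these settings the subunit share was below that of all genes. In HFD, 34 of 74 became 22 of 74 with at least 1000 genes, 21 of 73 at 2000 to 8000 UMIs and 13 of 74 at 1.5-fold. The genes of all kinds that were lower there were 1034 of 4525, 758 of 2936 and 665 of 4808. For HFD over CD in all cells, 11 became 7 with at least 1000 genes or at most 5% mt- UMIs, 6 at 2000 to 8000 UMIs and 1 at 1.5-fold. In that order, 1759 of 8485, 1369 of 8166, 1589 of 7548 and 619 of 8708 genes of all kinds were lower. In Lyve1+ cells, 29 of 74 became 16 with at least 1000 genes, 16 at 2000 to 8000 UMIs and 4 at 1.5-fold. The genes of all kinds that were lower there were 1033 of 4957, 914 of 4651 and 355 of 5297. The subunit share was thus near that of all genes in these settings. In Lyz1-high cells 14 became 0 at 1.5-fold, where 225 of 5898 genes were lower. With median-of-ratios scaling, genes of all kinds higher and lower in the set comparisons went from 2542 and 1275 to 1932 and 1865 in CD, and from 1807 and 1157 to 1468 and 1439 in HFD.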
